A study of Homo sapiens with 8 samples.

Results

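Expression of 7 genes that published work ties to the spread of breast cancer to the brain was examined in 2 brain-metastatic breast cancer cell lines, with and without induction of a short hairpin against the receptor tyrosine kinase MET. The genes are ST6GALNAC5, PTGS2, CTSS, ANGPTL4, LTBP1, FSCN1 and RGCC (older symbol C13orf15), chosen by name from that work. They are 7 of the 18239 genes named on the array and account for 20 of its 49386 probe sets. ST6GALNAC5 and LTBP1 have 5 probe sets each, PTGS2 and FSCN1 have 3 each, CTSS has 2, and ANGPTL4 and RGCC have 1 each.

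To colonise the brain, a tumour cell in the circulation must attach to and cross the blood-brain barrier, a layer of brain capillary endothelium sealed by tight junctions, and then grow among astrocytes and microglia. Genes linked to these steps act at the cell surface (the sialyltransferase ST6GALNAC5), on the permeability of the vessel (the prostaglandin synthase PTGS2, the secreted protein ANGPTL4, the protease CTSS), in the matrix around the cell (LTBP1) and inside it (the actin bundler FSCN1, the cell cycle regulator RGCC).

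Total RNA was measured on 8 single-colour Affymetrix arrays, 2 for each of 4 groups: 231BrM with doxycycline, 231BrM without it, and the line labelled SKBrM3 with and without it. All 8 came from cells that carry the doxycycline-inducible MET hairpin, the controls included, and no group had doxycycline without a hairpin, so each difference below holds the drug and the hairpin together. The labels give the dose as 100 ng, with no volume, and the exposure as 48 h, and state this protocol for the control samples too, so arrays were grouped by their sample titles. They do not give the hairpin's sequence, its promoter, or whether a line is a clone, nor do they say that replicates were separate cultures. A p-value therefore reflects how far these arrays lie from each other, and that spread may be technical.

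MET averaged 5.60 ± 0.35 with doxycycline and 9.35 ± 0.13 without it in 231BrM (log2 values, SD, n = 2 each), and 5.73 ± 0.03 against 9.23 ± 0.04 in the arrays labelled SKBrM3 (SD, n = 2 each). These levels are from 1 probe set. Over 18 alternative settings its log2 difference ran from -4.01 to -1.71 in 231BrM and from -3.52 to -1.88 in the arrays labelled SKBrM3. The labels of that line were checked against markers. SK-BR-3, from which the name SKBrM3 derives, is known for amplified ERBB2, yet ERBB2 lay between 6.70 and 7.11 on all 8 arrays and differed between the lines by 0.10 (231BrM minus SKBrM3, limma adjusted p = 0.418). Of the 15 SK-BR-3 markers tested, 5 were higher and 3 lower in 231BrM. The higher were the epithelial keratins KRT19, KRT7, KRT8 and KRT18, by 2.59, 1.90, 1.07 and 0.63, and the luminal factor SPDEF, by 0.83. The lower were the luminal factor FOXA1 and the ERBB2 neighbours MIEN1 and PGAP3, with differences of -1.37, -0.73 and -0.31. The other 7 did not pass, among them the ERBB2 neighbours GRB7 (-0.06, limma adjusted p = 0.778) and STARD3 (-0.07, limma adjusted p = 0.572). ESRP1, TFAP2B and CLDN3, also SK-BR-3 markers, lay under the filter level of the test, 4.41, on all 8 arrays and were not tested. VIM, a mesenchymal intermediate filament, lay between 12.7 and 12.9 on all 8 arrays. Over 18 markers of SK-BR-3 the mean level was 6.63 to 6.69 and 6.64 to 6.67 on the 231BrM arrays with and without doxycycline, against 6.32 to 6.36 and 6.43 on those labelled SKBrM3. Of 16 markers of MDA-MB-231 tested, 9 were higher and 1 lower in 231BrM (FN1, -0.36), and 6 did not pass. The largest differences were those of CDH11, 3.69, and SPARC, 2.74. Both genes averaged under 4.41, the filter level of the test, in the arrays labelled SKBrM3 and entered the test through the 231BrM arrays. Low signal limits these differences. Over the 17 MDA-MB-231 markers on the array the mean level was 9.48 to 9.54 and 9.52 to 9.60 on the 231BrM arrays with and without doxycycline, against 8.88 to 8.89 and 8.88 to 8.92 on those labelled SKBrM3. ERBB2, the keratins and SPDEF thus go against the label and FOXA1, MIEN1 and PGAP3 go with it. The other SK-BR-3 markers did not pass or were not tested. The text therefore writes "labelled SKBrM3" throughout. Over 12 markers of blood, endothelial, glial, stromal and liver cells the mean level was 4.55 to 4.62 in the 4 groups, and PTPRC, CD14, CDH5, AQP4 and ALB lay under the filter level of the test, 4.41, on all 8 arrays. The other 7, CD3E, PECAM1, VWF, GFAP, COL1A1, PDGFRB and HBB, read between 4.36 and 5.92, and of these COL1A1 was higher in 231BrM, by 0.47.

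The 231BrM doxycycline array of replicate 1 stood apart. For the actin controls, the 3' probe sets exceeded the 5' ones by 1.24 there, against 0.46 to 0.59 on the other 7 arrays, and for GAPDH by 0.33, against -0.02 to 0.09. The median absolute gap between both arrays of a group over the 20 probe sets was 0.331 for 231BrM with doxycycline, against 0.140 for 231BrM controls, 0.0996 for SKBrM3-labelled doxycycline arrays and 0.111 for their controls. Over all genes tested the same gaps were 0.155, 0.0793, 0.0762 and 0.0817. Differences with doxycycline in 231BrM rest on this array. Those of the 7 genes, their median and the count of genes clear of the controls are also given without it. The part of RNA quality in them was not tested.

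The promoters of ST6GALNAC5, RGCC and PTGS2 are shown because these 3 genes had the largest differences with doxycycline among the 7. Each window runs from 250 bases before to 50 after the start of the gene, is taken from RefSeq (GRCh38.p14) and is printed 5' to 3' on the gene's strand, with motif matches on either strand in capitals. The motifs are the CCAAT box, searched as the letters of its name, and 3 others. The TATA box was searched as TATAAA. The GC box, a site of the Sp1 family of factors, was searched as GGGCGG. The short form of the cyclic AMP response element was searched as CGTCA. A window was found for 5 of the 7 genes.
ST6GALNAC5: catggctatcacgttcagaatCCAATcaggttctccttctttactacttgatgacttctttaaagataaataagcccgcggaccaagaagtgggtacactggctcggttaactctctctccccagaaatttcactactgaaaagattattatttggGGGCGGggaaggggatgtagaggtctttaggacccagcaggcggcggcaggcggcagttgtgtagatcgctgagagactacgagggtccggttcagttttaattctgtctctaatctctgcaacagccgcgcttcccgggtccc
RGCC: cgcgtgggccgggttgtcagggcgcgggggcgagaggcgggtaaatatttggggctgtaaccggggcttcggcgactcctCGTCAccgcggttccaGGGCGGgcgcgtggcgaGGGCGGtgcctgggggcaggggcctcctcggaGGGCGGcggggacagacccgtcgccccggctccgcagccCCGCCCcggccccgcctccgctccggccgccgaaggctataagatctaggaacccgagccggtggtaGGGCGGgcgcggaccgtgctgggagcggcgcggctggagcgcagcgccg
PTGS2: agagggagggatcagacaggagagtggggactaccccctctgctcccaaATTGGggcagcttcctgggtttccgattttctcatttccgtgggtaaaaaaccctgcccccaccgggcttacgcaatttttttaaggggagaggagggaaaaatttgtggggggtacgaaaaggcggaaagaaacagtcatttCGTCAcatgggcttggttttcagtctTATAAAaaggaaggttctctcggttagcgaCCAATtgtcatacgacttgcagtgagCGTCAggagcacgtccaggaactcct
The first lies at chr1:76867230-76867529 on the plus strand, the second at chr13:41457300-41457599 on the plus strand and the third at chr1:186680374-186680673 on the minus strand. In the ST6GALNAC5 window a CCAAT box begins at position -229 from the start site and a GC box at -94. The RGCC window, which is 76.7% G and C against 50% for ST6GALNAC5 and 50.7% for PTGS2, holds 5 GC boxes, beginning at -154, -137, -105, -66 and 2, and a cyclic AMP element at -170. The PTGS2 window holds a TATA box at -32, CCAAT boxes at -201 and -2, and cyclic AMP elements at -58 and 25. Searched in the same way on both strands, an AP-1 site (TGANTCA) or an NF-kB consensus (GGGRNNYYCC) matched in none of the 3 windows. In these letters R stands for A or G, Y for C or T and N for any base. The search took exact letters, so a site that departs from them by a base was missed. Lack of a match therefore does not show that a window has no such site. Of 35116 RefSeq windows of this length, 11.5% hold a TATA box, 34.6% a CCAAT box, 45% a GC box, 24.6% the cyclic AMP element, 7.71% the AP-1 site and 11.3% the NF-kB consensus. A match describes the letters in the window and no more.

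**Figure D1:**
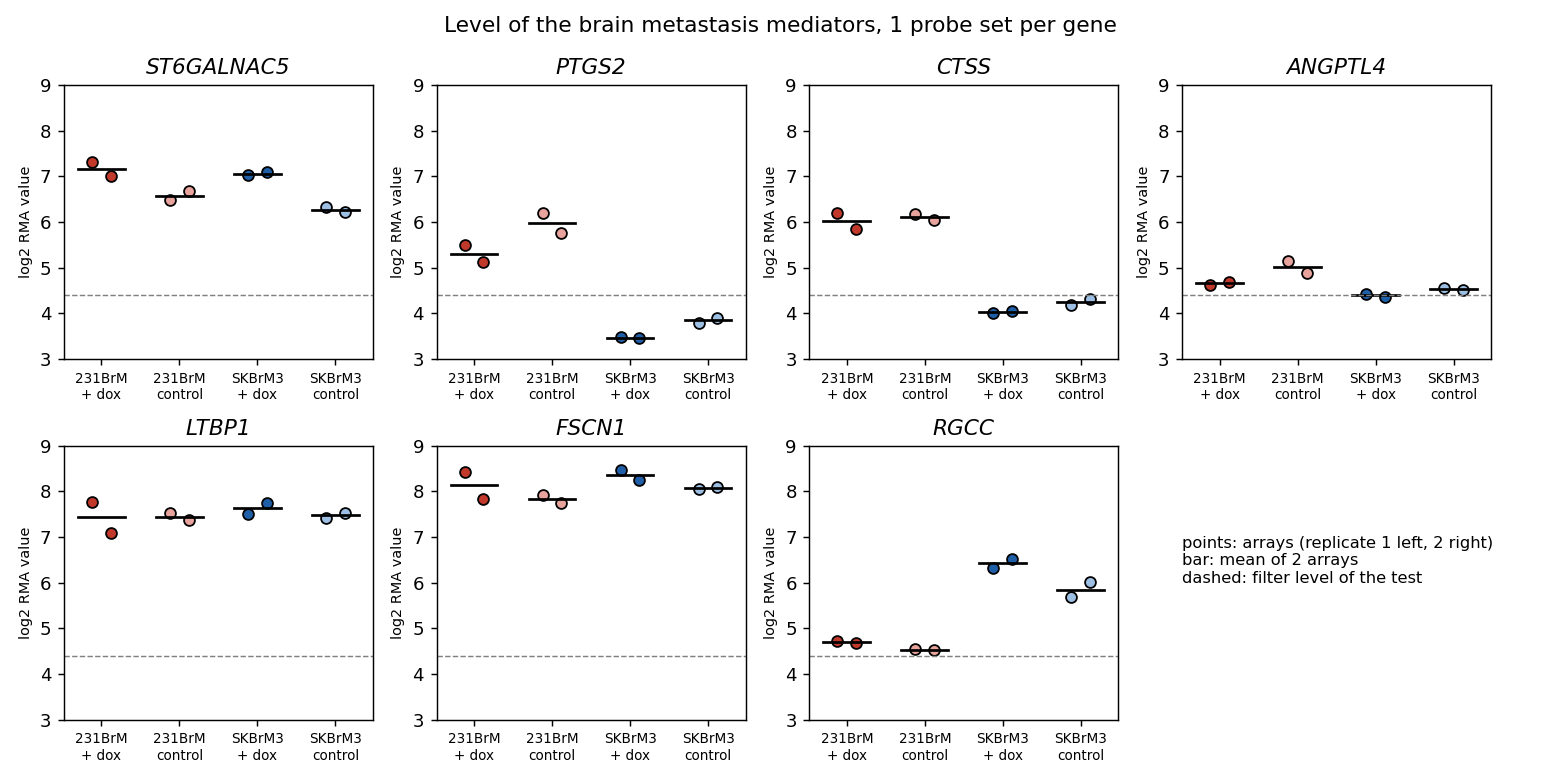
Log2 RMA value (vertical axis, 3 to 9) of the probe set used for each of the 7 genes on each array, with the mean of both arrays as a bar and the filter level of 4.41 dashed. ST6GALNAC5 stood higher with doxycycline in both lines, PTGS2 stood lower, and PTGS2, CTSS and RGCC differed between the lines by more than with doxycycline.

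All 7 genes passed the filter on low values (over 4.41 on at least 2 arrays), and so did 18 of the 20 probe sets. PTGS2 and CTSS exceeded that level on the 4 arrays of 231BrM only. With doxycycline, ST6GALNAC5 and RGCC rose in the arrays labelled SKBrM3, and 0 of the 7 genes fell there, at a limma adjusted p under 0.05 over 13002 genes, of which 3.43% passed. In 231BrM 0 of the 7 passed, against 0.162% of all genes, while 3 did so at an unadjusted p under 0.05 (ST6GALNAC5, PTGS2 and ANGPTL4), against 9.89% of all genes. The median log2 difference of the 7 genes was -0.02 in 231BrM, against 0.05 over all genes, and 0.15 in the arrays labelled SKBrM3, against 0.01 over all genes. The arrays with and without doxycycline did not overlap for 4 of the 7 genes in 231BrM, against 37.9% of all genes, and for 6 of 7 in the arrays labelled SKBrM3, against 59.6%. Without the 231BrM doxycycline array of replicate 1 the median of the 7 in 231BrM was -0.25, against -0.0013 over all genes. The lone doxycycline array then lay outside the controls for 6 of the 7, against 72.0% of all genes.

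ST6GALNAC5 encodes a Golgi enzyme that adds sialic acid to gangliosides and glycoproteins, and published work describes it as a mediator of adhesion to brain endothelium. Its probe set with the highest mean read 7.32 and 6.996 on the 231BrM doxycycline arrays, against 6.48 and 6.67 on the 231BrM controls. On the arrays labelled SKBrM3 it read 7.03 and 7.09 with doxycycline, against 6.32 and 6.22 without. All 4 doxycycline arrays lay above all 4 controls, and the doxycycline arrays of the lines overlapped. In the arrays labelled SKBrM3 it rose 1.73-fold, averaging 7.06 ± 0.04 with doxycycline and 6.27 ± 0.07 without (SD, n = 2 each), a log2 difference of 0.79 (standard error 0.118, 95% interval 0.52 to 1.06, limma adjusted p = 0.0117). In 231BrM the averages were 7.16 ± 0.23 with doxycycline and 6.58 ± 0.14 without (SD, n = 2 each), a log2 difference of 0.58 (standard error 0.118, 95% interval 0.31 to 0.85) that did not pass (limma adjusted p = 0.169). The difference of both effects, 231BrM minus SKBrM3, was -0.21 with an interval from -0.59 to 0.17 (limma adjusted p = 0.673). In bulk RNA such as this, fewer cells that express a gene and less of its RNA per cell cannot be told apart.

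In the fit of all arrays, the 5 ST6GALNAC5 probe sets all had positive differences with doxycycline in both lines. In the arrays labelled SKBrM3 they were 0.79, 0.86, 0.63, 0.33 and 0.28, and in 231BrM 0.58, 0.48, 0.51, 0.49 and 0.05. Without the 231BrM doxycycline array of replicate 1 those of 231BrM were 0.42, 0.28, 0.31, 0.385 and -0.05, so the last turned negative. When every probe set was tested on its own, the one used for the gene passed in the arrays labelled SKBrM3 (limma adjusted p = 0.0337) and the next did not (0.0527), so that 1 of the 18 probe sets of the 7 genes passed there, against 1.44% of all probe sets. In 231BrM 0 of 18 passed, against 0.0658%. The gene's call in the arrays labelled SKBrM3 was lost when any of the 4 arrays of that line was left out. Its log2 difference then lay between 0.74 and 0.84 and its limma adjusted p between 0.08 and 0.129. In 231BrM the log2 difference was 0.42 without the doxycycline array of replicate 1, and 0.74 without that of replicate 2. The latter fit keeps only the doxycycline array with the raised 3' signal.

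**Figure D2:**
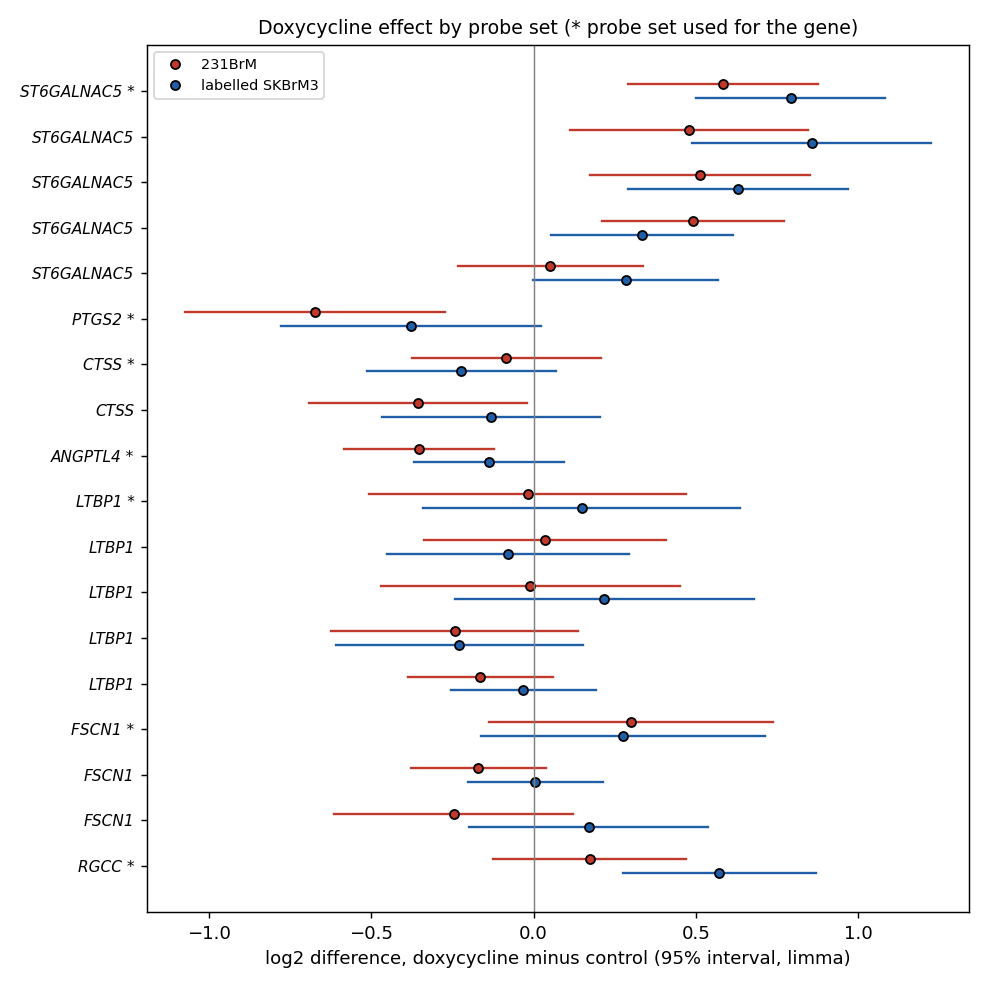
Log2 difference, doxycycline minus control, of the 18 probe sets that passed the filter (points, with 95% intervals from limma), in 231BrM and in the line labelled SKBrM3, with a star at the probe set used for each gene. All 10 points of ST6GALNAC5 lie above 0 in this fit of all arrays, and the probe sets of FSCN1 and LTBP1 lie on both sides of 0.

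PTGS2 encodes cyclooxygenase-2, the inducible enzyme that turns arachidonic acid into the precursor of the prostaglandins, some of which raise the permeability of vessels. The probe set used read 5.50 and 5.12 on the 231BrM doxycycline arrays, against 6.20 and 5.76 on the 231BrM controls. On the arrays labelled SKBrM3 it read 3.48 and 3.46 with doxycycline, against 3.79 and 3.91 without, all under the filter level. The groups did not overlap in either line, the doxycycline arrays being the lower. The log2 difference was -0.67 in 231BrM (standard error 0.159, 95% interval -1.04 to -0.31, limma adjusted p = 0.249) and -0.38 in the arrays labelled SKBrM3 (standard error 0.159, 95% interval -0.74 to -0.02, limma adjusted p = 0.228), and neither passed. In 231BrM it was -0.86 without the doxycycline array of replicate 1. The other 2 PTGS2 probe sets stayed between 3.16 and 3.81 on all 8 arrays and were not tested. In a fit of the arrays labelled SKBrM3 alone the difference there passed (limma adjusted p = 0.0281), at values under the filter level. In that fit 1248 genes passed, against 446 in the fit of all arrays. With the replicate number in the fit the difference in 231BrM passed (limma adjusted p = 0.0413), but the numbers are not shown to pair the arrays.

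CTSS encodes cathepsin S, a lysosomal and secreted protease that, in published work, cleaves the junctional protein JAM-B at the blood-brain barrier. Its probe set read 6.19 and 5.85 on the 231BrM doxycycline arrays, against 6.17 and 6.04 on the controls, so that these groups overlapped. On the arrays labelled SKBrM3 it read 4.01 and 4.05 with doxycycline, against 4.19 and 4.32 without, all 4 under the filter level. The log2 differences with doxycycline were -0.08 in 231BrM (95% interval -0.35 to 0.18, limma adjusted p = 0.806) and -0.22 in the arrays labelled SKBrM3 (95% interval -0.49 to 0.05, limma adjusted p = 0.329). The other CTSS probe set had differences of -0.36 and -0.13, which did not pass either. In 231BrM the difference of the probe set used was -0.25 without the doxycycline array of replicate 1 and 0.09 without that of replicate 2, so its direction depended on which was kept.

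ANGPTL4 encodes a secreted inhibitor of lipoprotein lipase that also acts on endothelial junctions. Its only probe set read 4.62 and 4.69 on the 231BrM doxycycline arrays, against 5.14 and 4.89 on the 231BrM controls. On the arrays labelled SKBrM3 it read 4.43 and 4.37 with doxycycline, against 4.55 and 4.52 without. The doxycycline arrays were the lower in both lines and did not overlap the controls, at levels close to the filter. The log2 difference was -0.35 in 231BrM (standard error 0.0955, 95% interval -0.57 to -0.14, limma adjusted p = 0.319) and -0.14 in the arrays labelled SKBrM3 (95% interval -0.35 to 0.08, limma adjusted p = 0.463), and neither passed. Without the doxycycline array of replicate 1 the difference in 231BrM was -0.32.

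LTBP1 encodes a matrix protein that binds latent TGF-beta and tethers it to fibrillin fibres until it is released. The probe set used read 7.77 and 7.09 on the 231BrM doxycycline arrays, against 7.53 and 7.37 on the 231BrM controls. On the arrays labelled SKBrM3 it read 7.51 and 7.74 with doxycycline, against 7.43 and 7.53 without. All groups next to each other in level overlapped, and replicates of 231BrM with doxycycline lay further apart than any of the group means. The log2 difference with doxycycline was -0.02 in 231BrM (95% interval -0.46 to 0.42) and 0.15 in the arrays labelled SKBrM3 (95% interval -0.29 to 0.59), and neither passed (limma adjusted p = 0.98 and 0.714). In 231BrM it was -0.36 without the doxycycline array of replicate 1 and 0.32 without that of replicate 2, so its direction depended on which was kept. The 5 probe sets differed between these arrays, replicate 1 minus replicate 2, by 0.68, 0.40, 0.67, -0.51 and 0.13.

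FSCN1 encodes fascin, which bundles actin into the stiff cores of filopodia. The probe set used read 8.43 and 7.84 on the 231BrM doxycycline arrays, against 7.92 and 7.74 on the 231BrM controls. On the arrays labelled SKBrM3 it read 8.46 and 8.25 with doxycycline, against 8.06 and 8.10 without. The doxycycline arrays lay clear of the controls in the arrays labelled SKBrM3 and overlapped them in 231BrM. The log2 difference was 0.30 in 231BrM (95% interval -0.09 to 0.69, limma adjusted p = 0.577) and 0.27 in the arrays labelled SKBrM3 (95% interval -0.12 to 0.67, limma adjusted p = 0.416), and neither passed. In 231BrM it came to 0.0035 without the doxycycline array of replicate 1 and to 0.60 without that of replicate 2. The other probe sets of FSCN1 gave -0.17 and -0.25 in 231BrM. In the arrays labelled SKBrM3 they gave 0.0049, with overlapping groups, and 0.17. The 3 probe sets differed between the 231BrM doxycycline replicates by 0.59, 0.01 and -0.47.

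**Figure D3:**
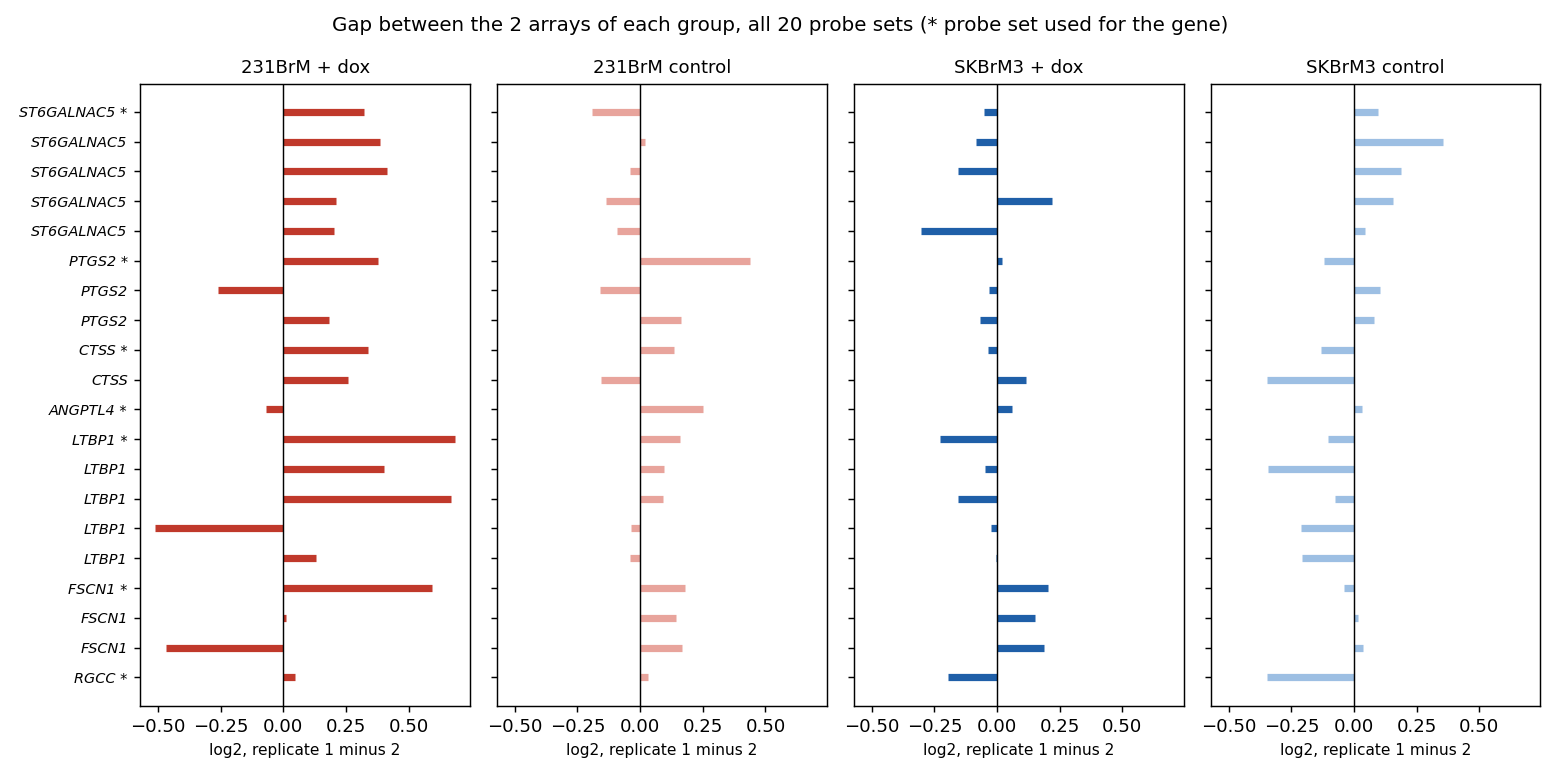
Gap between both arrays of a group (horizontal axis, log2 value of replicate 1 minus replicate 2) for all 20 probe sets, with 1 panel per group and a star at the probe set used for each gene. In 231BrM with doxycycline 4 probe sets, of LTBP1 and FSCN1, have gaps over 0.5 in size and they point both ways, while 0 do in the other 3 groups.

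RGCC encodes a cell cycle regulator that binds the kinase CDK1 and is induced by complement activation and by TGF-beta. Its only probe set read 6.32 and 6.52 with doxycycline on the arrays labelled SKBrM3, against 5.68 and 6.02 without. On the 231BrM arrays it read 4.73 and 4.68 with doxycycline, against 4.55 and 4.52 without. The doxycycline arrays lay above the controls in both lines, and every array labelled SKBrM3 lay above every 231BrM array. In the arrays labelled SKBrM3 it rose 1.49-fold, averaging 6.42 ± 0.14 with doxycycline and 5.85 ± 0.24 without (SD, n = 2 each), a log2 difference of 0.57 (standard error 0.120, 95% interval 0.30 to 0.85, limma adjusted p = 0.0399). In 231BrM the difference was 0.17 (95% interval -0.10 to 0.45, limma adjusted p = 0.635), and 0.15 without the doxycycline array of replicate 1. The difference of both effects, 231BrM minus SKBrM3, was -0.40 with an interval from -0.79 to -0.01, which did not pass over all genes (limma adjusted p = 0.429). The call was kept without either 231BrM doxycycline array and lost without each of the other 6 arrays, where the log2 difference lay between 0.40 and 0.75 and the limma adjusted p between 0.0569 and 0.233. It was not made when every probe set was tested on its own (limma adjusted p = 0.0867).

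None of the 7 genes passed the test of the difference of the doxycycline effect between the lines, where 0.0231% of all genes did. At an unadjusted p under 0.05, 1 of the 7 did (RGCC), against 11.2% of all genes. The median of the 7 differences, 231BrM minus SKBrM3, was -0.21, against 0.03 over all genes. These values share their arrays with both doxycycline comparisons.

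Without doxycycline the lines differed in 4 of the 7 genes at a limma adjusted p under 0.05, 3 higher and 1 lower in 231BrM, against 39.7% of all genes. When every probe set was tested on its own 5 of 18 passed, against 33.4% of all probe sets. The median difference of the 7 genes, 231BrM minus SKBrM3, was 0.31, against -0.05 over all genes. PTGS2 averaged 5.98 ± 0.31 in 231BrM and 3.85 ± 0.08 in the arrays labelled SKBrM3 (SD, n = 2 each), a log2 difference of 2.14 (standard error 0.159), or 4.39-fold (limma adjusted p = 2.39e-05). CTSS averaged 6.10 ± 0.10 in 231BrM and 4.25 ± 0.09 in the arrays labelled SKBrM3 (SD, n = 2 each), a log2 difference of 1.85 (standard error 0.118), or 3.61-fold (limma adjusted p = 9.15e-06), and its other probe set gave 1.55. Both genes lay under the filter level in the arrays labelled SKBrM3, so low signal limits these folds. Both also entered the test through the 231BrM arrays, and a probe set that enters in that way has a difference between the lines.

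ANGPTL4 averaged 5.01 ± 0.18 in 231BrM and 4.53 ± 0.02 in the arrays labelled SKBrM3 (SD, n = 2 each), 1.39-fold higher in 231BrM (log2 difference 0.48, limma adjusted p = 0.00428). RGCC averaged 4.54 ± 0.02 in 231BrM and 5.85 ± 0.24 in the arrays labelled SKBrM3 (SD, n = 2 each), 2.49-fold lower in 231BrM (log2 difference -1.32, limma adjusted p = 6.65e-05). These 4 calls were kept without each array in turn and in the other alternatives that could be fitted to the gene. As PTGS2 and CTSS entered the test through the 231BrM arrays, the persistence of their calls is no further support. ST6GALNAC5 differed by 0.31 (95% interval 0.04 to 0.57) and did not pass (limma adjusted p = 0.0694), FSCN1 by -0.25 (95% interval -0.64 to 0.15, limma adjusted p = 0.288) and LTBP1 by -0.03 (95% interval -0.47 to 0.41, limma adjusted p = 0.915). Without either 231BrM doxycycline array, ST6GALNAC5 (limma adjusted p = 0.0136) and FSCN1 (limma adjusted p = 0.0485) passed as well, the differences themselves being the same, and 50.6% of all genes passed in the fit without that of replicate 1.

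**Figure D4:**
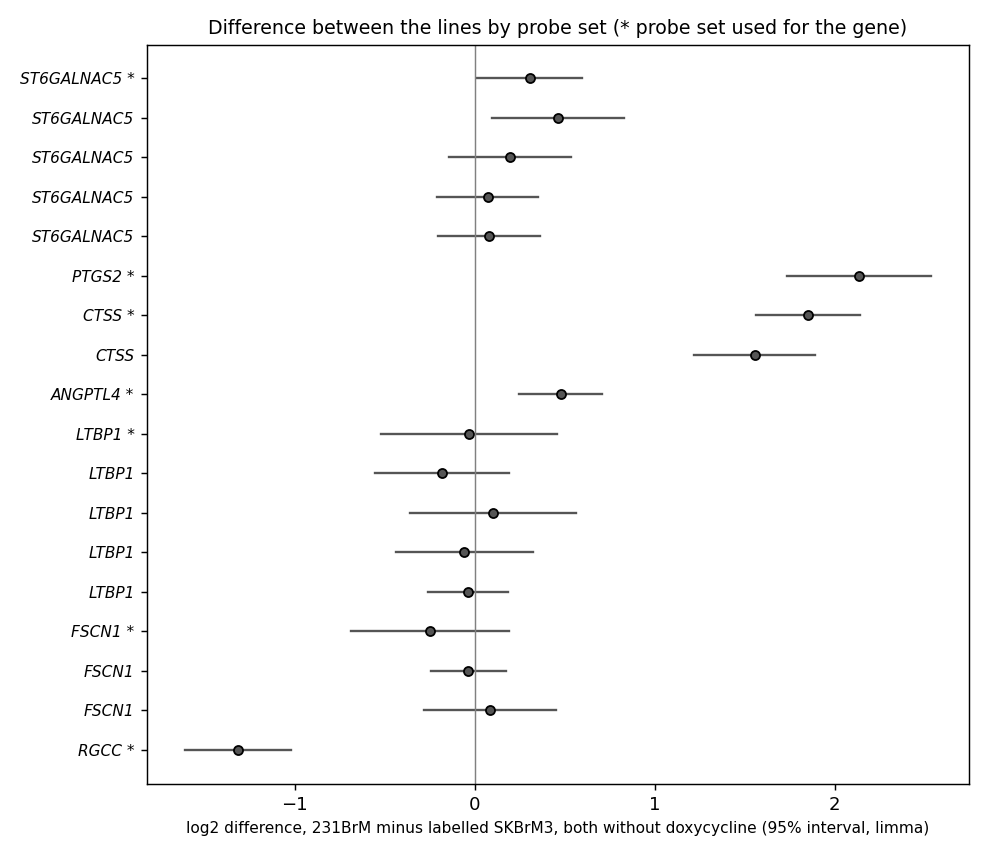
Log2 difference between the lines without doxycycline, 231BrM minus the line labelled SKBrM3, for the 18 probe sets that passed the filter (points, with 95% intervals from limma), with a star at the probe set used for each gene. PTGS2 and both CTSS probe sets lie above 1.5, RGCC lies below -1, and all probe sets of LTBP1 and FSCN1 have intervals that include 0.

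The order of the groups by mean level differed between genes. For ST6GALNAC5 both doxycycline groups came first (231BrM, then SKBrM3-labelled, overlapping), followed by 231BrM controls and SKBrM3-labelled controls. For PTGS2, CTSS and ANGPTL4 the order was 231BrM controls, 231BrM with doxycycline, SKBrM3-labelled controls and SKBrM3-labelled arrays with doxycycline, and neighbours overlapped only between both 231BrM groups of CTSS. For RGCC the order was SKBrM3-labelled arrays with doxycycline, their controls, 231BrM with doxycycline and 231BrM controls, with no neighbours overlapping. For LTBP1 every pair of neighbours overlapped, and for FSCN1 every pair did except the lowest, SKBrM3-labelled controls above 231BrM controls.

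The genes around each of the 7 were read from lists of their pathways, described by counts only. Of these 8 lists none had a gene that passed with doxycycline in 231BrM, where 0.162% of all genes did. At an unadjusted p under 0.05, which 9.89% of all genes reached, the counts there were 1 of 11 other sialyltransferases tested, 0 of 13 genes of prostaglandin synthesis, breakdown and reception, 0 of 3 angiopoietin-related genes (ANGPT1, the receptor gene TIE1 and LPL, the lipase that ANGPTL4 inhibits), 4 of 15 genes of the latent TGF-beta complex, 2 of 19 actin bundlers and filopodial genes, 0 of 7 complement regulators and partners of RGCC, 2 of 16 cathepsins, cystatins and CD74, and 5 of 20 other genes linked to brain metastasis. Without the 231BrM doxycycline array of replicate 1 these counts, in the same order, were 1, 1, 0, 3, 2, 0, 1 and 7, against 10.6% of all genes. HBEGF, a ligand of the EGF receptor, had a log2 difference of -0.51 in 231BrM that did not pass (limma adjusted p = 0.0791). Without that array it was -0.57.

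In the arrays labelled SKBrM3, 3.43% of all genes passed and 20.2% had an unadjusted p under 0.05. There 0 of 11 other sialyltransferases passed with doxycycline (2 at an unadjusted p under 0.05), with a median of 0.06. Among the prostaglandin genes 1 of 13 rose, PTGIR, the prostacyclin receptor, which averaged 5.22 with doxycycline and 4.80 without (limma adjusted p = 0.0449). Among fits without 1 array, that call was kept without either 231BrM doxycycline array and lost without each of the other 6 (limma adjusted p = 0.0819 to 0.304). In the latent TGF-beta list 1 of 15 fell, TGFBR1, the type I TGF-beta receptor. It read 7.95 and 8.16 with doxycycline, against 9.26 and 9.26 without, a log2 difference of -1.21 (limma adjusted p = 0.000471). On the 231BrM arrays it read 9.32 and 9.24 with doxycycline, against 9.74 and 9.67 without, a difference of -0.42 that did not pass, and of -0.46 without the doxycycline array of replicate 1.

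Of the actin bundlers 1 of 19 fell in the arrays labelled SKBrM3, PLS3, a plastin, at a log2 difference of -0.43 (limma adjusted p = 0.0237). This call too was lost without each array other than the 231BrM doxycycline arrays (limma adjusted p = 0.0618 to 0.189). Among the other genes linked to brain metastasis 0 rose and 3 of 20 fell there. HBEGF, which belongs with PTGS2 and ST6GALNAC5 in published work, averaged 9.25 with doxycycline and 9.98 without (log2 difference -0.73, limma adjusted p = 0.00295). The growth factor CSF3 had a difference of -0.74 (limma adjusted p = 0.00636) and the gelatinase MMP9 one of -0.68 (limma adjusted p = 0.0086). HBEGF was lost without doxycycline replicate 1 of that line (limma adjusted p = 0.0568), MMP9 without doxycycline replicate 1 (0.11) or control replicate 2 (0.0997), and CSF3 without doxycycline replicate 2 (0.0565), control replicate 1 (0.07) or control replicate 2 (0.0737). In the angiopoietin, complement and cathepsin lists 0 of 3, 0 of 7 and 0 of 16 passed, with 0, 1 and 3 at an unadjusted p under 0.05.

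Between the lines without doxycycline the lists had calls in both directions, against 39.7% of all genes. Of the cathepsins, cystatins and CD74 8 of 16 were higher and 2 lower in 231BrM, with a median of 0.23. The cathepsins CTSC and CTSZ, at 0.86 and 0.76, were among the higher, as was CD74, the invariant chain that cathepsin S trims, at 1.04. Of the other genes linked to brain metastasis 9 of 20 were higher and 2 lower, with a median of 0.28. They include HPSE, a heparanase, at 2.38, the chemokine receptor CXCR4 at 2.15, with 3.11, 4.74 and 3.70 from its other probe sets, and the connexin GJA1, whose probe sets gave 5.65 and 0.60. HPSE averaged 4.21 and GJA1 3.31 in the arrays labelled SKBrM3, under the filter level, so low signal limits these differences too. SERPINI1, also among the higher, averaged 3.97 there. These genes entered the test through the 231BrM arrays, and a gene that enters in that way has a difference between the lines. The count and the median of this list include them.

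Of the latent TGF-beta list 5 of 15 were higher and 3 lower in 231BrM, among them the latency activator THBS1 at 1.96, the fibrillin FBN1 at 1.38 and the coreceptor TGFBR3 at 1.37. Of the actin bundlers 4 of 19 were higher and 4 lower. LCP1, a plastin of blood cells, was lower by 4.97 on the log2 scale in 231BrM, at 6.16 against 11.12 in the arrays labelled SKBrM3, the actin regulator EVL had -0.62, with -0.13 and -0.19 from its other probe sets, and the formin DIAPH3 0.50. Of the sialyltransferases 3 of 11 were higher and 1 lower, with ST8SIA4 at 1.03, ST3GAL4 at 0.43 and ST6GALNAC4 at -0.49. ST8SIA4 averaged 3.89 in the arrays labelled SKBrM3, under the filter level, so low signal limits its difference. It too entered the test through the 231BrM arrays, and the count of higher genes includes it. Of the prostaglandin genes 1 of 13 was higher and 3 lower, with the prostaglandin E synthases PTGES at 0.50 and PTGES2 at -0.45 and the receptor PTGER4 at -0.66. The other 2 probe sets of PTGES gave 0.16 and -0.04. Without 231BrM control replicate 1, ST3GAL4, PTGES and DIAPH3 did not pass (limma adjusted p = 0.0644, 0.0571 and 0.0513), and without control replicate 1 of the line labelled SKBrM3 PTGES did not (0.0561). Of the complement list 3 of 7 were higher and 1 lower, with the complement inhibitors CD55 at 0.55 and CD46 at 0.49, and CDK1, the partner of RGCC, at -0.61. The other CD46 probe sets that passed the filter gave 0.12 to 0.60. With the mean of all its probe sets CD46 did not pass (0.30, limma adjusted p = 0.0897). Of ANGPT1, TIE1 and LPL 0 passed.

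For each of the 7 genes the pair of other genes with the most similar pattern was taken by Pearson's r over the 8 arrays, which share their normalization and fall into 2 lines, so r is given as a description. ST6GALNAC5 was followed by TBC1D4 and BDH1 (r of 0.96 each), PTGS2 by SNX16 (0.998) and ARHGAP29 (0.997), and CTSS by NRIP1 (0.999) and VNN1 (0.998). ANGPTL4 was followed by MAP3K5 (0.989) and UNC119B (0.971), LTBP1 by PYHIN1 (0.963) and ZNF354A (0.962), FSCN1 by P2RX3 (0.987) and CAMK2N2 (0.986), and RGCC by ARL2 and ZBTB26 (0.995 each).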

How the data were processed

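The authors deposited log2 values made with RMA, which corrects background, quantile normalizes and summarises probes, per the submitters' processing notes. Version, software and genome build: not given in the sources used here. Quantile normalization hides a change in total RNA. Scanner intensities were not analysed here, and no measured background stands beside low values.

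Of the probe sets 93 are controls, 45253 name 1 gene, 1327 several and 2713 none. A RefSeq table (GRCh38.p14), matched by gene ID, gave current symbols for 45172, and 81 kept the annotation's symbol. Each gene was read from its probe set of highest mean. Genes with at least 2 arrays over 4.41, the 40th percentile of the whole table, were tested, which gave 13002 genes, and 28860 probe sets when each was tested on its own. limma 3.58.1 (lmFit and eBayes, R 4.3.3) was fitted to the log2 values as 4 group means over all 8 arrays (4 residual and 4.60 prior degrees of freedom), two-sided, with Benjamini-Hochberg adjustment over all features tested, and a call was made at an adjusted p under 0.05. Precision is limited by the number of arrays (median standard error of a doxycycline effect 0.0968). The fit was also run on simulated data with independent noise, no difference between the lines and no array with raised 3' signal. That run does not test how the fit behaves where these are present.

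The 7 genes were named in every comparison. Of each list up to 4 passing genes with the smallest p per doxycycline comparison and up to 3 with the largest difference between the lines were named, besides MET and the 2 genes most like each of the 7. Members, lists and rule were chosen with earlier results of these data known. In a fit that leaves out an array, the lone array of its group is assumed to vary like the other groups. Alternatives were filters, the choice of probe set, normalization, a replicate block, array weights, the prior, fits of 1 line and left-out arrays.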

Additional observations from a re-analysis of the deposited data

How the results depend on the processing

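Counts of genes that passed moved with the fit. The probe set with the highest variance gave 5 genes with doxycycline in 231BrM, 157 in the arrays labelled SKBrM3 and 0 for the difference between them, against 21, 446 and 3. Array weights gave 11 and 1605, an intensity trend with a robust prior gave 45 in 231BrM and 13 for the difference, and fits of 1 line gave 1 and 1248. Of the 18 probe sets of the 7 genes, 1 passed in the arrays labelled SKBrM3, against 4 with array weights, 2 with the trend, 5 in the fit of that line, 2 after another quantile normalization and 0 with the replicate block. Leaving out each array in turn gave 3 to 1650 genes in 231BrM, 52 to 1631 in the arrays labelled SKBrM3, 0 to 473 for the difference and 3323 to 6575 between the lines, and 0 to 7, 0 to 4, 0 to 1 and 4 to 7 of the probe sets. For 231BrM and for the difference, the highest counts of genes and of probe sets came from the fit without the 231BrM doxycycline array of replicate 2. Of the 231BrM doxycycline arrays, that fit keeps only the one with the raised 3' signal. All other fits gave far fewer genes in these comparisons. Fits with fewer arrays have fewer degrees of freedom. Where an array was left out, its group kept a lone array, which adds nothing to the spread that the groups share. The part of each in the counts, and otherwise the cause, was not tested.

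Directions turned for genes that did not pass. With the mean of all probe sets of a gene, the doxycycline difference of FSCN1 in 231BrM was -0.038, the difference between the doxycycline effects was -0.043 for CTSS, -0.19 for FSCN1 and 0.17 for MET, and MET differed between the lines by -0.22, which passed (limma adjusted p = 0.023). Over the 8 fits without an array, the difference between the effects ran from -0.031 to 0.31 for CTSS, from -0.27 to 0.32 for FSCN1 and from -0.51 to 0.18 for LTBP1, the doxycycline difference in 231BrM from -0.25 to 0.085 for CTSS and from -0.36 to 0.32 for LTBP1, and the difference between the lines from -0.11 to 0.048 for LTBP1. The cause was not tested. ST6GALNAC5 passed in the arrays labelled SKBrM3 in 13 of 18 alternatives and RGCC in 11 of 18, in the same direction in all 18. With the highest-variance probe set neither passed (limma adjusted p = 0.0606 and 0.0982). PTGS2 was not tested as the mean of its probe sets, nor ANGPTL4 under the stricter filter, because both then fell under the filter level. The choice of probe set has no counterpart where every probe set was tested.

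Same-numbered arrays did not deviate together in both lines (correlation of deviations 0.239 in 231BrM and -0.012 in the arrays labelled SKBrM3, with 2 pairs in all per line), so the numbers are not shown to pair the arrays. With the replicate block 20, 482, 4 and 5406 genes passed in the 4 comparisons. PTGS2 then passed in 231BrM at its log2 difference of -0.67 (limma adjusted p = 0.0413), and PTGIR no longer did in the arrays labelled SKBrM3 (0.0509).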
